A study of Mus musculus with 11 samples.

Results

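The Slc25 genes encode the mitochondrial carrier family. Their members were taken as every row of the deposited count tables whose symbol is Slc25a followed by a number, which gave 47 of 32531 gene rows. They were described in cortical RNA of mice carrying the TRAP transgene Glt25d2-EGFP/Rpl10a (line DU9), described as adult. In these mice the regulatory DNA of Glt25d2 (now Colgalt2) drives an EGFP-tagged ribosomal protein, mainly in pyramidal neurons of cortical layer 5. Tagged ribosomes and their RNA were pulled down with antibodies to EGFP (immunopurified, IP), the method known as TRAP-seq. All mice carried the transgene and belonged to a study of short-access intravenous self-administration. The 11 libraries were 3 IP libraries from cocaine self-administration, 3 from yoked controls and 3 from saline self-administration, with 1 unbound library of the cocaine group (RNA left after the pull-down) and 1 input library of the saline group (RNA before it). Tissue is labelled cerebral cortex, but the protocol for RNA extraction speaks of whole striatum. The sources used here do not give the treatment that yoked mice got, their sex or exact age, or whether a library is 1 animal or a pool. The p-values therefore measure only the spread between libraries.

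Carriers of this family are small proteins of repeated membrane-spanning modules, most of them in the inner mitochondrial membrane, where they exchange nucleotides, phosphate, organic acids, amino acids and cofactors between the cytosol and the matrix. The ADP/ATP and phosphate carriers feed ATP synthase and export its product. In neurons the aspartate/glutamate carrier works in the malate-aspartate shuttle, which brings reducing power from cytosolic glucose breakdown to the respiratory chain, and glutamate carriers move glutamate into the matrix.

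The libraries numbered 1 stood apart from the others in each of the 3 treatments. All 10 layer 5 markers were higher in them in the fit over all 3 treatments (edgeR adjusted p under 0.05). Their summed levels (CPM, gene counts scaled to library size) were 1375 to 1600 CPM in the 3 number 1 IP libraries. In the 6 numbered 2 and 3 they were 724 to 956 CPM. Within cocaine, Bcl11b was lower in number 1, at 142 CPM against 159.5 and 148 CPM in numbers 2 and 3. The 9 astrocyte markers summed to 585 to 1051 CPM in number 1 and 1889 to 2623 CPM in numbers 2 and 3. The 9 oligodendrocyte markers summed to 569 to 724 CPM against 1349 to 1778 CPM, the 8 interneuron markers to 511.5 to 664 CPM against 769 to 997 CPM, and the 8 microglia markers to 15.9 to 27.5 CPM against 29.0 to 42.2 CPM. Called lower in number 1 (edgeR adjusted p under 0.05) were 7 astrocyte, 7 oligodendrocyte, 7 interneuron and 5 microglia markers. Called higher were 1 astrocyte marker, S100b, and 1 interneuron marker, Pvalb. No microglia marker was called higher, but 2 had changes above 0. Nuclear noncoding RNAs such as Malat1 summed to 211 to 422 CPM in number 1 and 2431 to 7499 CPM in numbers 2 and 3. The summed level of the 8 endothelial and mural markers overlapped, at 16.6 to 26.8 CPM against 15.8 to 23.5 CPM, but 5 of them were called higher and 1, Rgs5, lower, with a median log2 change of 0.73. No marker was at 0 in any library. Each treatment was sequenced on its own lane, so lane and treatment cannot be told apart, and equal replicate numbers of the IP libraries share a sequencing index. Medians and calls of the treatment contrasts are given with and without the number 1 libraries. Fraction ratios of named members are given for each IP library, and their rankings by mean include number 1.

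The promoters of 36 of the 47 members were found in a RefSeq table of GRCm38.p6, the assembly of mm10, as 46 windows of 300 bases that run from 250 bases before a transcription start to 50 after it. The 4 windows below belong to members that differed between library numbers: Slc25a4, Slc25a3 and Slc25a14 were higher and Slc25a23 was lower in number 1. Slc25a37 and Slc25a51, which also differed clearly, are named only. They lie on chr8:46211013-46211312 (minus strand, Slc25a4), chr10:91123918-91124217 (minus strand, Slc25a3), chrX:48623198-48623497 (plus strand, Slc25a14) and chr17:57059814-57060113 (minus strand, Slc25a23). Where the table had several starts, the one nearest to the GENCODE start is shown. Each runs 5′ to 3′ on the strand of its gene, and capitals mark GC boxes (GGGCGG, the core bound by Sp1, on either strand).
Slc25a4: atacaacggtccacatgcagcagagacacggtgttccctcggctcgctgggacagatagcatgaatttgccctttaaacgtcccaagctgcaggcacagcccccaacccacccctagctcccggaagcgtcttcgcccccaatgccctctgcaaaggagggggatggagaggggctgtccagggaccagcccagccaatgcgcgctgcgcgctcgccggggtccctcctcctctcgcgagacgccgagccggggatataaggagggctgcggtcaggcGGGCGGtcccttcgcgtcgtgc
Slc25a3: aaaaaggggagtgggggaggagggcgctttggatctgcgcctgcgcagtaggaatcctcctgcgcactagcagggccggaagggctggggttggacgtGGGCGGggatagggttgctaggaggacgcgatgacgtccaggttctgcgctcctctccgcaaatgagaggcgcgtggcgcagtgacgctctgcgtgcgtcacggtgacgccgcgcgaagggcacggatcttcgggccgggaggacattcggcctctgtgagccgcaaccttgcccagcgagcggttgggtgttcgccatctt
Slc25a14: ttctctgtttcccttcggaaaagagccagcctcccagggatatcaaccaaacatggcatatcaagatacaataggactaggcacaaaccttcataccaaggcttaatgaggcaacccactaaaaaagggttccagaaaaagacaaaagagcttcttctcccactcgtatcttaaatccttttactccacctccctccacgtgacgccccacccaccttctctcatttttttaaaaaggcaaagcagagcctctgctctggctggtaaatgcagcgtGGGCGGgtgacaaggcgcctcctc
Slc25a23: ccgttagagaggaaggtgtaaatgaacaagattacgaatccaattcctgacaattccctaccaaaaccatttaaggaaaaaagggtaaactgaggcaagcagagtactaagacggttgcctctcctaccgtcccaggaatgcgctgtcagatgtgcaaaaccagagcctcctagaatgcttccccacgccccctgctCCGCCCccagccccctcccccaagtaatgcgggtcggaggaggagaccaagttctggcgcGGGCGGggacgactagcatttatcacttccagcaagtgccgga

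All 4 windows held a GC box, whichever way the level differed. A GC box was found in 38 of the 46 member windows, belonging to 30 of the 36 members, and in 35.7% of all 32851 windows of the table, which also holds noncoding genes. Among members with a window, 12 of 13 called higher in number 1 had a GC box and 4 of 5 called lower had one. Of the other motifs searched on both strands, a cyclic AMP response element (TGACGTCA) was in windows of 2 members and 1.79% of all windows, and an NRF1 core (GCATGCGC) in windows of 2 members and 2.71% of all. An ETS site (CCGGAAGT) was in 1 member and 3.89% of all windows, a YY1 site (AAGATGGC) in 1 member, Slc25a3, and 2.75% of all, and an ERR site (TCAAGGTCA) in 0 members and 0.423% of all. These matches describe letters in a window and not binding.

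Slc25a4, which encodes the adenine nucleotide translocator of heart, muscle and brain, was the most abundant member. Its mean level per length, as CPM per kilobase of the longest principal transcript in GENCODE M21, was 582 ± 214 (SD, n = 9 IP libraries), and by mean CPM it was 73rd of 16417 genes tested. Slc25a3, the phosphate carrier, followed at 220 ± 74.0 per kilobase and Slc25a23, a calcium-regulated ATP-Mg/phosphate carrier, at 126.5 ± 44.7. The next were Slc25a46, an outer membrane protein of mitochondrial dynamics, at 75.8 ± 16.8, Slc25a5, the second adenine nucleotide translocator, at 71.2 ± 19.9, and Slc25a11, the oxoglutarate/malate carrier, at 68.0 ± 21. Slc25a22, a glutamate carrier, had 39.6 ± 4.53, Slc25a51, the mitochondrial NAD carrier, 39.1 ± 12.7, and Slc25a14, of the uncoupling-protein branch, 38.7 ± 17.3. Slc25a46, Slc25a5 and Slc25a11 overlapped in level both among the number 1 libraries and among the others. The place of Slc25a23 depended on the library number. In number 1 Slc25a23 (54.55 to 82.68) was below Slc25a46 (85.95 to 105) and Slc25a5 (83.17 to 112.8), and in numbers 2 and 3 Slc25a23 (126.8 to 168.3) was above both. So did the order of Slc25a22, Slc25a51 and Slc25a14: in number 1 Slc25a14 (51.7 to 73.2) was above Slc25a22 (43.5 to 46.9) and Slc25a51 (19.3 to 25.7), and in numbers 2 and 3 Slc25a14 (25.9 to 30.8) was below both. With the length of all annotated exons joined, Slc25a23 ranked above Slc25a3. In GENCODE M21 (GRCm38) these genes lie at chr8:46206797-46211284 (Slc25a4), chr10:91116574-91124059 (Slc25a3) and chr17:57043711-57059863 (Slc25a23), all on the minus strand, and at chrX:36795651-36798807 (Slc25a5) and chrX:48623413-48662294 (Slc25a14) on the plus strand; all 47 members were matched to this annotation.

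**Figure D1:**
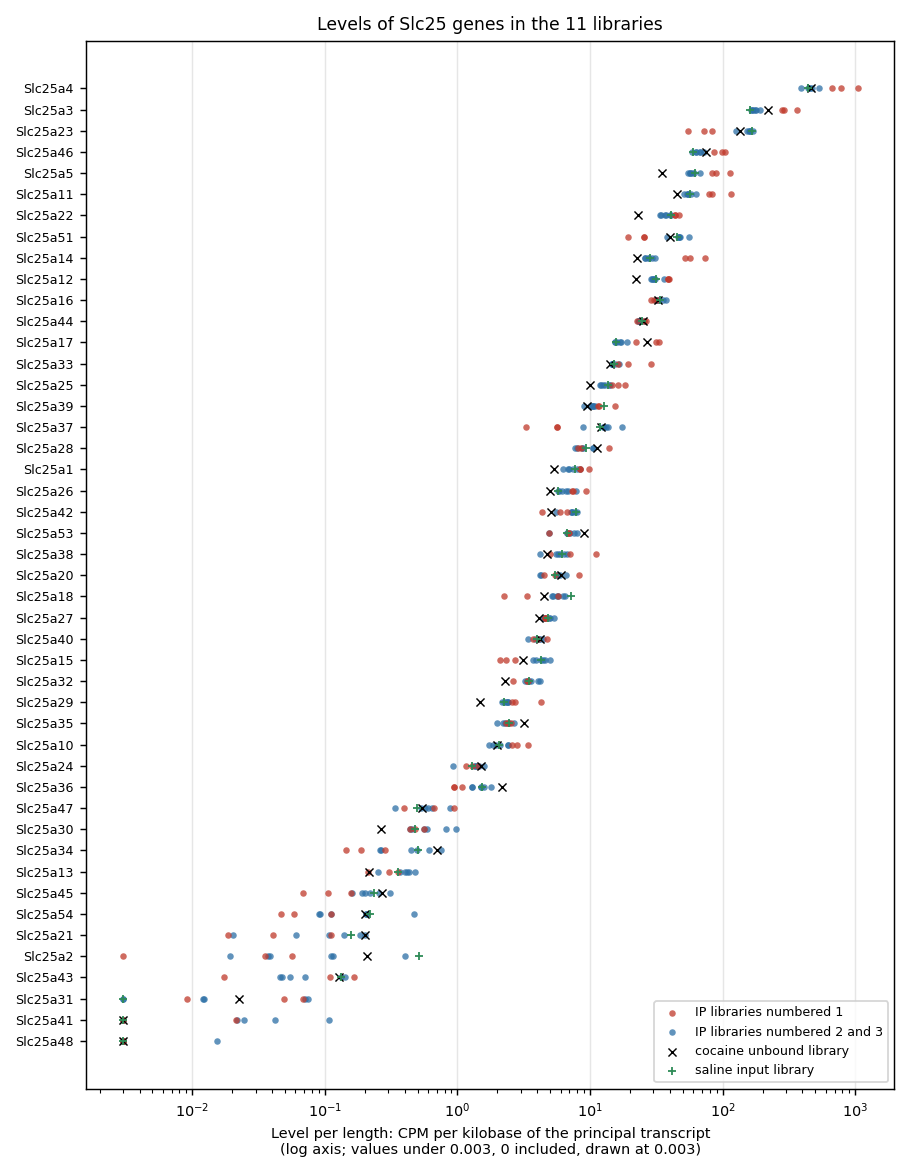
Level per length (CPM per kilobase of the principal transcript, log axis) of the members, 1 of them not plotted, ordered by their mean over the IP libraries, with 1 point per library and values of 0 drawn at the left end. Slc25a4 ran from 391 to 1044 in the IP libraries, and the red points of number 1 lie to the right of the blue points for Slc25a4, Slc25a3 and Slc25a14 and to the left for Slc25a23, Slc25a51 and Slc25a37.

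Of the 47 members, 3 had a mean of 100 or more per kilobase, 14 lay between 10 and 100, 18 between 1 and 10, and 12 under 1. The filter on low counts kept 42 members for tests. The 5 left out were Slc25a2, an ornithine carrier, Slc25a31, the testis-type adenine nucleotide translocator, Slc25a41, Slc25a43 and Slc25a48. Slc25a48 had 2 counts in saline IP library 2 and 0 counts in the other 10 libraries. Slc25a2 had 19 counts in cocaine IP library 2 and 29 in the saline input, and 0 to 6 in the other 9. Slc25a31 had 6, 0 and 0 counts in cocaine IP libraries 1, 2 and 3, against 4, 1 and 5 in yoked and 1, 1 and 6 in saline. All 14 members with an exon that overlaps another annotated gene, among them Slc25a23, Slc25a37, Slc25a46, Slc25a11, Slc25a18 and Slc25a51, are uncertain to that extent. The overlap is on the same strand for Slc25a51 and Slc25a47 and on the opposite strand for the others, for which it matters whether the counting used strand, a setting the sources used here do not give. Reads that map to several places were not counted for genes, so copies of Slc25a3, Slc25a4 and Slc25a5 elsewhere in the genome would lower their counts.

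All members together held 0.464% of gene counts in cocaine IP library 1, against 0.335% and 0.347% in libraries 2 and 3. The yoked libraries gave 0.374% against 0.327% and 0.325%, and the saline libraries 0.390% against 0.331% and 0.321%. The unbound library gave 0.315% and the input 0.336%. Number 1 was thus the highest in each treatment. Slc25a4 alone made up 41.9%, 34.3% and 36.9% of the family's counts in the number 1 libraries of cocaine, yoked and saline, and 22.8% to 30.5% in the 6 others. Slc25a23 made up 3.83% to 7.36% in number 1 and 12.7% to 17.1% in the others.

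Replicate number was compared within treatments, as number 1 over the mean of numbers 2 and 3 with treatment as a term. In this edgeR fit 22 of the 42 members passed an adjusted p under 0.05: 15 were higher in number 1 and 7 lower. Over all 16417 genes, 27.6% were called higher and 27.7% lower. The median log2 change was 0.10 over the members and 0.01 over all genes; with the trend on transcript length removed the median of the members was -0.05. Number 1 lay above all 6 other libraries in 14 of the 42 and below all 6 in 6, where 22.5% and 23.9% of all genes did so. One of the 6, Slc25a45, whose substrate is not settled, missed the threshold at -0.99 ± 0.51 (edgeR adjusted p = 0.112). All 22 called members had the same direction within each of the 3 treatments. In pulled-down RNA of many cells, the number of cells of a type, the RNA per cell and what came through the pull-down cannot be told apart. The part of the cell-type and nuclear markers above in these differences was not tested.

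Among carriers that supply ATP synthase, the translocators and the phosphate carrier were higher in number 1. Slc25a4 stood at 2009, 1296 and 1505 CPM in number 1 of cocaine, yoked and saline, against 878 and 1026 CPM in numbers 2 and 3 of cocaine, 844.5 and 752 CPM of yoked, and 914 and 862 CPM of saline. Slc25a3 stood at 591, 454 and 470.5 CPM in the same number 1 libraries, against 268 and 307, 264.5 and 287, and 272 and 281 CPM in numbers 2 and 3 of the same treatments. Slc25a5 stood at 140, 111 and 103 CPM, against 75.2 and 83.6, 70.8 and 70.8, and 67.5 and 72.9 CPM. In all 3 genes every number 1 library was above the 6 others. The log2 changes were 0.85 ± 0.11 (SE) for Slc25a4, 0.85 ± 0.10 for Slc25a3 and 0.67 ± 0.10 for Slc25a5 (edgeR adjusted p 1.83e-05, 7.88e-06 and 4.28e-05).

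The ATP-Mg/phosphate carriers, which set the size of the matrix adenine nucleotide pool, did not move together. Slc25a23 stood at 183, 278 and 242 CPM in number 1 of cocaine, yoked and saline, against 539 and 426, 516.5 and 566, and 533 and 543 CPM in numbers 2 and 3. Every number 1 library was below the 6 others, and the log2 change was -1.17 ± 0.12 (edgeR adjusted p = 1.94e-06). Slc25a25 was higher by 0.34 ± 0.10 (edgeR adjusted p = 0.0118), and Slc25a24 had a change of -0.05 ± 0.17 that missed the threshold (edgeR adjusted p = 0.842). Of the 6 tested members of the ATP/ADP and phosphate group, 4 were called higher and 1 lower.

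**Figure D2:**
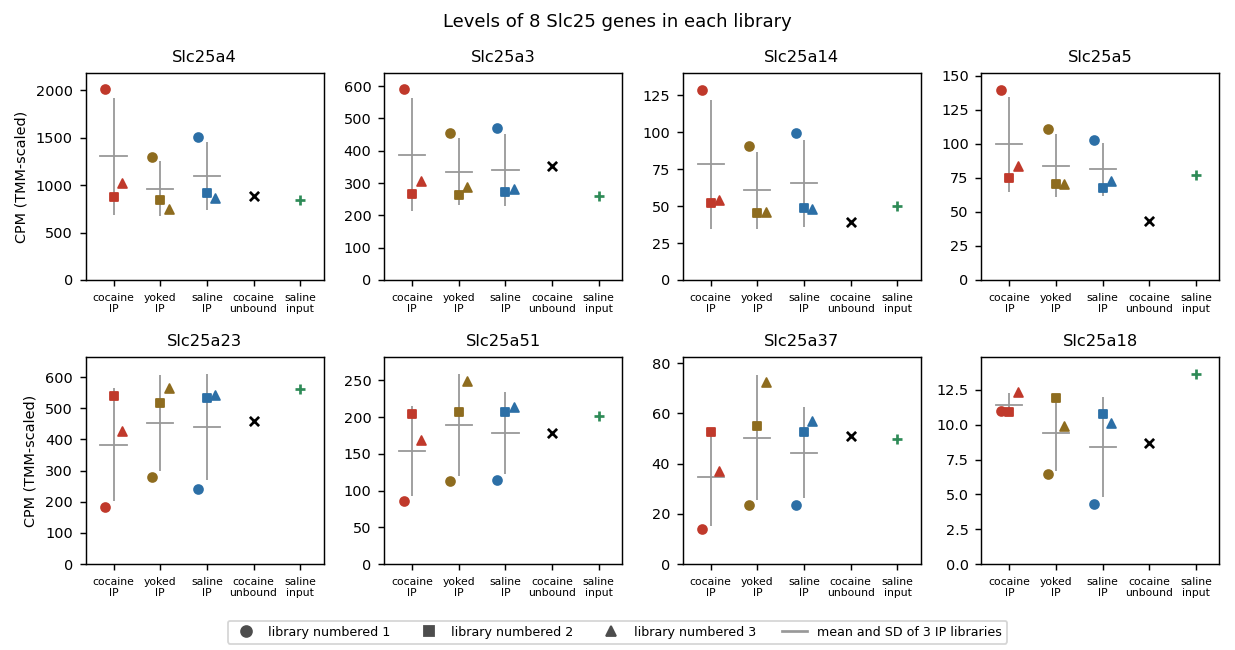
Level (CPM, TMM-scaled over the 11 libraries) of 8 members in each library, with the replicate number given by the marker and the mean and SD of each IP group in grey. The circles of number 1 are above the squares and triangles for Slc25a4, Slc25a3, Slc25a14 and Slc25a5 and below them for Slc25a23, Slc25a51 and Slc25a37, while for Slc25a18 the cocaine number 1 library, at 11 CPM, lies among the others.

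Of the 3 Slc25a-named members of the uncoupling-protein branch, Slc25a14 was called. Slc25a14 stood at 129, 91.0 and 99.4 CPM in number 1 of cocaine, yoked and saline, against 52.1 and 54.2, 45.5 and 46.0, and 48.6 and 48.1 CPM in numbers 2 and 3. Its number 1 libraries were above the 6 others, with a log2 change of 1.10 ± 0.10, the lowest p of the family (edgeR adjusted p = 4.27e-07). Slc25a27, its neuronal relative, stood at 13.1, 13.3 and 13.6 CPM against 14.4 and 14.2, 12.8 and 15.6, and 12.9 and 13.2 CPM, so the numbers overlapped. The change of Slc25a27 was -0.05 ± 0.12. Slc25a30 stood at 1.58, 2 and 1.71 CPM against 1.57 and 1.61, 2.10 and 3.47, and 2.01 and 2.93 CPM, again with overlap, and its change was -0.33 ± 0.24. Neither passed the threshold (edgeR adjusted p 0.739 and 0.256).

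Of the 4 carriers of citrate, dicarboxylates and oxoacids, 2 were called higher and none lower. Slc25a11, a partner of the malate-aspartate shuttle, stood at 197, 134 and 141 CPM in number 1, against 98.6 and 108, 91.9 and 87.4, and 93.3 and 94.2 CPM in numbers 2 and 3 of cocaine, yoked and saline. All number 1 libraries were above the others, by 0.70 ± 0.10 on the log2 scale (edgeR adjusted p = 4.78e-05). Slc25a10, the dicarboxylate carrier, was higher by 0.50 ± 0.18 (edgeR adjusted p = 0.0269). Slc25a1, the citrate carrier, stood at 16.3, 14.0 and 14.0 CPM in number 1 against 11.6 and 13.2, 11.4 and 10.5, and 12.4 and 14.1 CPM, with overlap and a change of 0.28 ± 0.13 (edgeR adjusted p = 0.0777).

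Glutamate and aspartate carriers split by gene. Slc25a12 (aralar), the neuronal aspartate/glutamate carrier, stood at 244, 249 and 248 CPM in number 1 of cocaine, yoked and saline, against 198 and 228, 191 and 192, and 184 and 188 CPM in numbers 2 and 3. Slc25a22 stood at 122, 132 and 122 CPM against 104 and 114, 96.0 and 112, and 94.3 and 106 CPM. Both were above the other libraries in every number 1 library, by log2 changes of 0.33 ± 0.10 and 0.27 ± 0.09 (edgeR adjusted p 0.0100 and 0.0234). Slc25a18, the glutamate carrier known from astrocytes, stood at 11, 6.43 and 4.28 CPM in number 1, against 10.9 and 12.4, 11.9 and 9.93, and 10.8 and 10.1 CPM. It was called lower, at -0.68 ± 0.19 (edgeR adjusted p = 0.00793), but its cocaine number 1 library overlapped the others: the change was -0.09 within cocaine, -0.76 within yoked and -1.30 within saline. Slc25a13 (citrin), the liver-type aspartate/glutamate carrier, was at 0.947, 0.659 and 1.10 CPM against 1.49 and 1.35, 1.25 and 1.15, and 1.30 and 0.791 CPM, and its change of -0.42 ± 0.32 missed the threshold (edgeR adjusted p = 0.283).

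The cofactor, nucleotide and iron carriers also went both ways. Slc25a17, a peroxisomal carrier of cofactors, stood at 54.3, 38.2 and 57.1 CPM in number 1 of cocaine, yoked and saline, against 29.6 and 27.7, 26.4 and 26.4, and 32.8 and 29.1 CPM, and was higher by 0.78 ± 0.11 (edgeR adjusted p = 2.42e-05). Slc25a51 stood at 85.6, 113 and 114 CPM against 205 and 170, 207 and 249, and 208 and 213 CPM, and was lower by a log2 change of -1.01 ± 0.11 (edgeR adjusted p = 4.14e-06). Neither gene's number 1 libraries overlapped the others. Slc25a37 (mitoferrin-1), an iron importer known best from red cell precursors, stood at 13.8, 23.4 and 23.6 CPM against 52.8 and 37.2, 55.1 and 72.7, and 52.6 and 57.1 CPM. Every number 1 library of Slc25a37 was below the 6 others, and its change of -1.45 ± 0.15 was the largest of the called members (edgeR adjusted p = 1.55e-06). Slc25a28 (mitoferrin-2), the more widely expressed iron importer, stood at 21.2, 12.4 and 13.2 CPM against 13.4 and 16.1, 13.5 and 11.8, and 12.2 and 16.3 CPM, with overlap and a change of 0.14 ± 0.15 (edgeR adjusted p = 0.438). Of the 10 tested members for nucleotides, cofactors and glutathione, 4 were called higher, among them Slc25a17, Slc25a33 and Slc25a39, and 2 lower, Slc25a51 and Slc25a36.

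The remaining called members were few. Slc25a15, an ornithine carrier, stood at 7.96, 9.33 and 7.15 CPM in number 1 of cocaine, yoked and saline, against 15.6 and 13.5, 15.1 and 17.1, and 12.8 and 14.8 CPM, and was lower in every number 1 library, at -0.87 ± 0.13 (edgeR adjusted p = 7.27e-05). Slc25a46 stood at 459, 376 and 433.5 CPM against 278 and 293, 258 and 314, and 277 and 294 CPM, and was higher in every number 1 library, at 0.56 ± 0.10 (edgeR adjusted p = 0.000236). Slc25a34, whose substrate is not settled, stood at 0.388, 0.501 and 0.756 CPM against 1.20 and 1.64, 2.02 and 0.695, and 1.33 and 0.712 CPM, where saline number 1 overlapped the others. Its change was -1.15 ± 0.42 (edgeR adjusted p = 0.0312). Slc25a29, a carrier of basic amino acids, stood at 8.50, 5.14 and 5.37 CPM against 4.41 and 4.58, 4.73 and 4.65, and 4.25 and 4.75 CPM, and was higher by 0.45 ± 0.18 (edgeR adjusted p = 0.0436), a call kept in 3 of the 9 fits that leave out 1 library. The calls of Slc25a10, Slc25a22 and Slc25a39 were kept in 4 of the 9. Slc25a36 stood at 4.90, 4.93 and 5.62 CPM against 7.85 and 6.78, 8.23 and 9.33, and 7.83 and 6.75 CPM, below in every number 1 library, at -0.59 ± 0.16 (edgeR adjusted p = 0.00569).

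**Figure D3:**
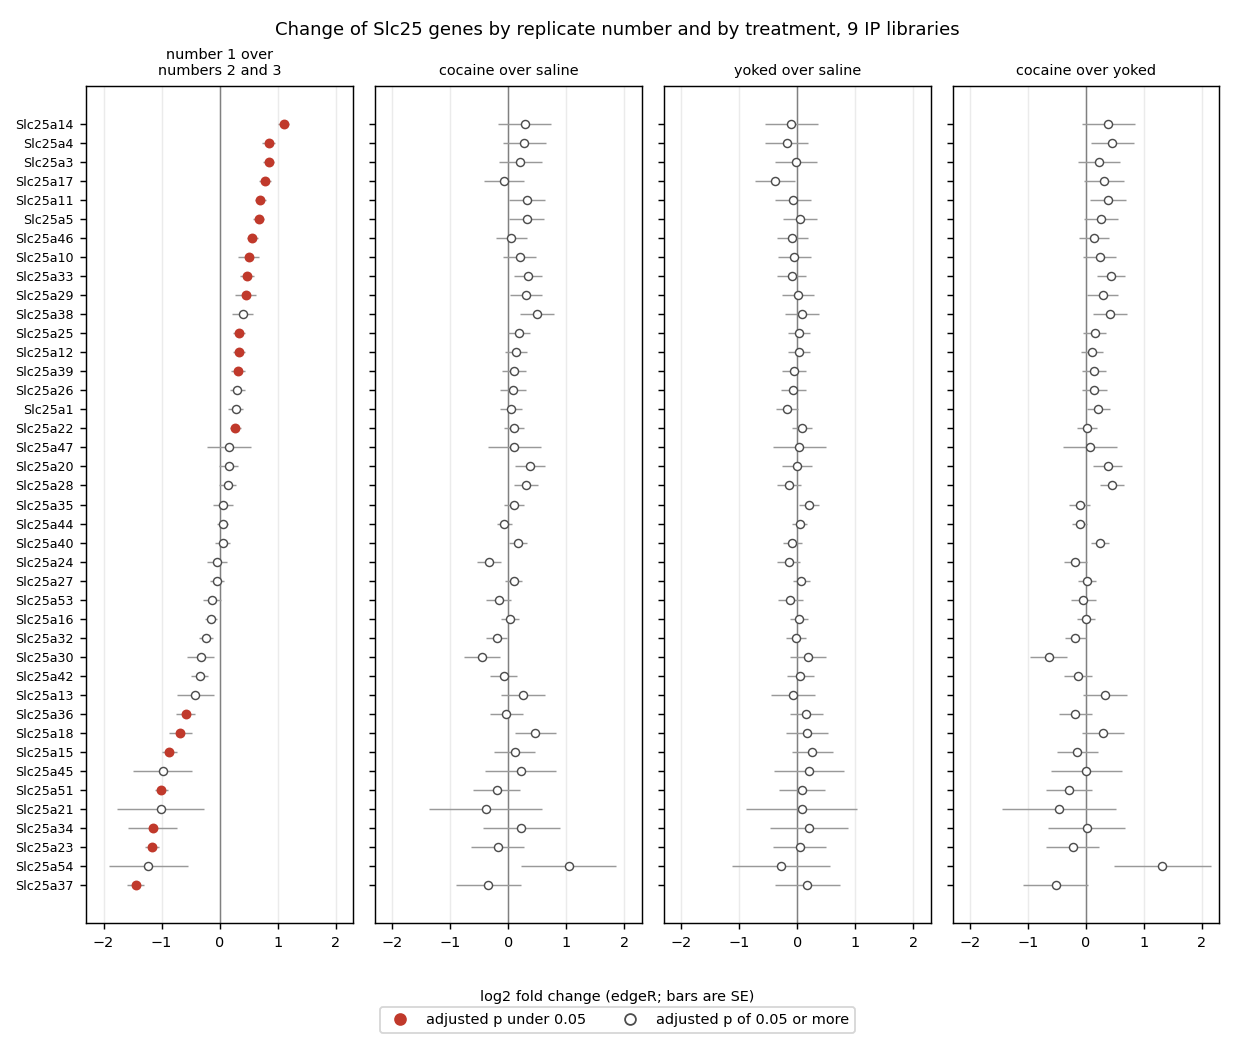
log2 fold change with SE of the tested members, 1 of them not plotted, in 4 contrasts of the 9 IP libraries, ordered by the change of number 1 over numbers 2 and 3. Filled points passed an adjusted p under 0.05: in the number contrast they range between 1.10 (Slc25a14) and -1.45 (Slc25a37), and there are 0 in each treatment contrast.

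Other mitochondrial genes were mostly higher in number 1. Of 16 ATP synthase subunits 15 were called higher and none lower, with a median log2 change of 0.97 and the largest changes in Atp5e (1.33 ± 0.21), Atp5l (1.26 ± 0.45) and Atp5b (1.21 ± 0.10). Atp5l was low, at 0.151 to 1.02 CPM in the IP libraries. Of 22 enzymes of the citric acid cycle and pyruvate oxidation 20 were called higher and none lower (median 0.72), led by Fh1 at 1.04 ± 0.11, Idh3b at 1.03 ± 0.12 and Pdhb at 0.98 ± 0.10. All 4 malate-aspartate shuttle enzymes (median 0.72) and all 5 porins and pyruvate carrier subunits found (median 0.75) were higher. Of 33 protein import genes 26 were higher and 1, Tomm20, was lower (median 0.70). Of 9 genes of the calcium uniporter group 4 were higher and 1, Mcur1, lower, and of 4 carnitine shuttle enzymes tested 1, Cpt1c, was higher. Carriers with symbols outside the Slc25 series gave 3 higher, among them Ucp2 at 0.87 ± 0.17 and Mtch1 at 0.67 ± 0.12, and 1 lower, Ucp3 at -1.05 ± 0.42, of 4 tested. Ucp3 was also low, at 0.252 to 1.117 CPM in the IP libraries. Of 12 regulators of mitochondrial biogenesis 1 was called higher, 5 were called lower and the rest were not called, with the largest change in Ppargc1b at -2.26 ± 0.16. These counts stand beside the background of 27.6% higher and 27.7% lower, and no test compared the lists.

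Members called higher had a shorter median transcript than those called lower, but the ranges overlapped, at 1240 to 6351 and 1911 to 5227 bases. The median principal transcript was 1925 bases in the 15 called higher, 3430 bases in the 7 called lower and 2588 bases in the 20 that were tested and not called. Across the 42 members the change and the length had a Spearman correlation of -0.45, and across 14556 tested genes with a length it was -0.42. These points share the same 9 libraries, and genes are not independent replicates. With the trend on length taken out of each library, 17 members were called, 10 higher and 7 lower. Of these, 16 were also called without that correction.

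Related members were set against each other within each library, where depth is shared. Slc25a4 over Slc25a5 per length was 7.55 to 9.40 in the 3 number 1 IP libraries and 6.85 to 8.72 in the 6 numbered 2 and 3, so the translocators kept overlapping ratios. It was 13.2 in the unbound library and 7.08 in the input. Slc25a14 over Slc25a27 was 11.3 to 16.1 in number 1 and 4.86 to 6.29 in the others, with no overlap, against 5.48 in the unbound library and 5.92 in the input. Slc25a37 over Slc25a28 was 0.240 to 0.691 against 0.848 to 2.26, also with no overlap, and 1.08 in the unbound library and 1.28 in the input. Slc25a22 over Slc25a18 was 7.58 to 19.4 in number 1 and 5.46 to 7.67 in the others, which overlapped in the cocaine library. Slc25a12 over Slc25a13 was 110 to 186 against 65.3 to 117, with overlap. At 0.659 to 1.49 CPM, Slc25a13 made that ratio imprecise.

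**Figure D4:**
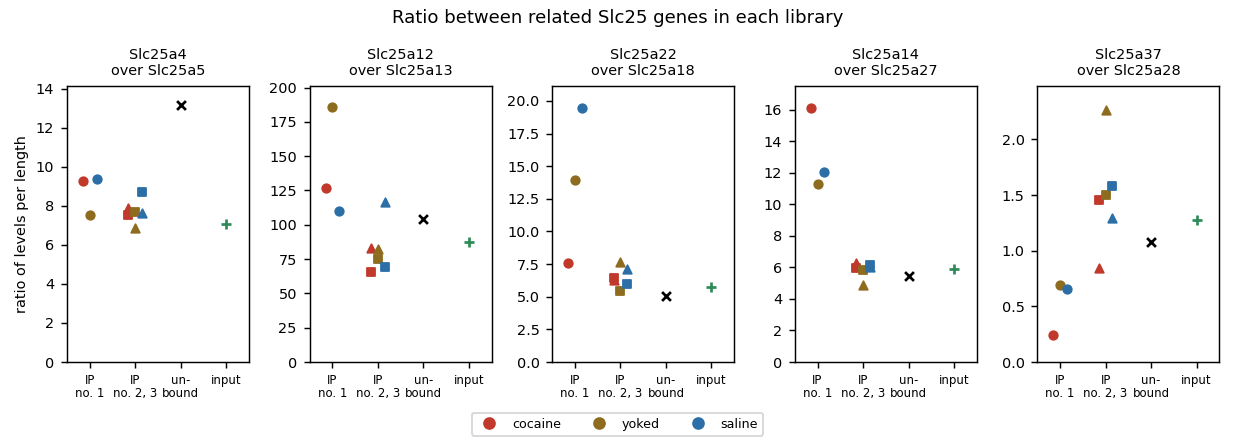
Ratio of the levels per length of 5 pairs of related members in each library (linear axes from 0; colours give the treatment, circles number 1, squares number 2 and triangles number 3; the cross is the cocaine unbound library and the plus the saline input). Slc25a14 over Slc25a27 was at least 11.3 in number 1 and at most 6.29 in numbers 2 and 3.

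Numbers 2 and 3 were close to each other. Number 3 over number 2 gave 0 of 42 members called and 0% of all genes in edgeR. DESeq2 called 0 members and 8 genes, and 1 member had an unadjusted edgeR p under 0.05. That was Slc25a20, the carnitine/acylcarnitine carrier, at -0.42 ± 0.19 (edgeR adjusted p = 1).

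No member was called between treatments. In the edgeR fit of the 9 IP libraries, cocaine over saline, yoked over saline, cocaine over yoked and the joint test of any difference each gave 0 of 42 members and 0% of all genes. No member had an unadjusted p under 0.05 in these fits, which hold no term for replicate number, and DESeq2 also called 0. With replicate number as an added term, 5, 1 and 9 members had an unadjusted edgeR p under 0.05 for cocaine over saline, yoked over saline and cocaine over yoked. So did 2023, 493 and 3006 of 16417 genes, and 0 members were called. The contrasts share libraries, so each is given by its own values. The median log2 change over the members was 0.11 for cocaine over saline (0.03 over all genes), 0.03 for yoked over saline (0.00 over all genes) and 0.14 for cocaine over yoked (0.01 over all genes). Without the number 1 libraries these medians were 0.08, 0.03 and 0.03, with 0 members called. Above 0 were 30 of 42 members and 8771 of 16417 genes for cocaine over saline, 23 members and 8360 genes for yoked over saline, and 29 members and 8448 genes for cocaine over yoked. Cocaine was above saline within all 3 numbers in 9 members and below it in 6, where 17.6% and 17.5% of all genes did so. For yoked over saline these were 5 and 6 members, beside 16.3% and 13.2% of genes, and for cocaine over yoked 11 and 7 members, beside 17.4% and 18.7% of genes. The median for cocaine over saline was 0.04 without cocaine library 1 or without saline library 2.

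Cocaine over saline had its lowest p in Slc25a38, a glycine carrier of haem synthesis. Slc25a38 stood at 19.9, 10.4 and 11.4 CPM in cocaine IP libraries 1, 2 and 3, against 12.7, 7.51 and 9.84 CPM in saline. The groups overlapped, while within numbers 1, 2 and 3 cocaine was above saline by log2 differences of 0.63, 0.44 and 0.20. Slc25a24 stood at 4.01, 4.84 and 3.15 CPM in cocaine against 4.87, 5.40 and 4.99 CPM in saline, and was below in all 3 cocaine libraries with no overlap. Slc25a20 stood at 14.6, 10.6 and 9.80 CPM against 7.99, 11.7 and 7.62 CPM, with overlap. The log2 changes were 0.49 ± 0.30, -0.33 ± 0.20 and 0.37 ± 0.25 (edgeR p 0.130, 0.139 and 0.174, adjusted p = 1 for each).

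Yoked over saline had its lowest p in Slc25a35, whose substrate is not settled. Slc25a35 stood at 4.64, 4.45 and 4.89 CPM in yoked IP libraries 1, 2 and 3, against 4.38, 3.65 and 4.06 CPM in saline, so that the yoked libraries lay above all saline ones. Its change was 0.21 ± 0.17. Slc25a17 stood at 38.2, 26.4 and 26.4 CPM against 57.1, 32.8 and 29.1 CPM, with overlap, and the difference was -0.39 ± 0.34. Slc25a1 stood at 14.0, 11.4 and 10.5 CPM against 14.0, 12.4 and 14.1 CPM, also with overlap, and a difference of -0.17 ± 0.19. The edgeR unadjusted p were 0.264, 0.287 and 0.390, and the adjusted p was 1 for each.

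Cocaine over yoked had its lowest p in Slc25a28, the mitoferrin-2 gene. Slc25a28 stood at 21.2, 13.4 and 16.1 CPM in cocaine IP libraries 1, 2 and 3, against 12.4, 13.5 and 11.8 CPM in yoked, with overlap in library 2. Slc25a30 stood at 1.58, 1.57 and 1.61 CPM against 2, 2.10 and 3.47 CPM, lower in all 3 cocaine libraries. Slc25a33, a pyrimidine nucleotide carrier, stood at 54.1, 29.3 and 31.0 CPM against 30.6, 27.5 and 27.8 CPM, with overlap. The changes were 0.44 ± 0.21, -0.65 ± 0.31 and 0.43 ± 0.25 (edgeR p 0.0625, 0.0699 and 0.118, adjusted p = 0.972 for each). Slc25a4 over the same contrast was 2009, 878 and 1026 CPM in cocaine against 1296, 844.5 and 752 CPM in yoked. The groups overlapped, while within each number cocaine was above yoked, by log2 differences of 0.63, 0.06 and 0.45 in numbers 1, 2 and 3. Slc25a33 was likewise above within each number, by 0.81, 0.09 and 0.16.

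The size of the number 1 change was compared between treatments with an interaction term, chosen after the data were seen. Between cocaine and saline 0 of 42 members were called, beside 0.524% of all genes, and 7 members and 2679 of 16417 genes had an unadjusted p under 0.05. Between yoked and saline 0 members and 0% of genes were called, with 2 members and 643 genes under an unadjusted 0.05. Between cocaine and yoked 1 member was called, Slc25a38, beside 3.19% of all genes, and 7 members and 3185 genes were under an unadjusted 0.05. These counts are near the background, and each arm is 1 number 1 library. Its levels were 19.9 CPM in cocaine library 1 against 10.4 and 11.4 CPM in libraries 2 and 3, and 8.99 CPM in yoked library 1 against 12.1 and 10.7 CPM. The number 1 change of Slc25a38 was thus 0.87 in cocaine and -0.34 in yoked, a difference of 1.21 (edgeR adjusted p = 0.0377) that rests on 1 number 1 library in each treatment.

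The fractions were compared by the ratio of each IP library to the single other library of its treatment, over 38 members with a mean of at least 1 CPM. No member differed 2-fold in the same direction in all 3 cocaine IP libraries over the cocaine unbound library, where 0.399% of 13527 genes were higher and 2.21% lower. No member did so over the saline input either, where 0.0742% of 13478 genes were higher and 0.0445% lower. An edgeR fit of all 11 libraries, in which the lone unbound and input libraries are assumed to vary like the IP groups, called 0 members and 10 genes over unbound and 0 members and 0 genes over input. At an unadjusted p under 0.05 there were 3 members and 1635 genes over unbound, and 0 members and 39 genes over input. The unbound and input fractions have 1 library each, from a separate sequencing lane, so lane cannot be told apart from fraction. The unbound library also differed from all others in its read make-up. Reads over several genes were 7.336% of its entries, against 1.555% to 1.907% in the other libraries. It held 20926712 gene counts, against 33633470 to 53862653 in the others. What part these differences have in the ratios to unbound was not tested.

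Cocaine IP library 1 was at least 2-fold from the unbound library in 11 members, against 1 member in library 2 and 0 in library 3. Over all 13527 genes tested, 4457, 936 and 1032 were at least 2-fold apart in libraries 1, 2 and 3, so the members' counts were not above the background. The members' median log2 ratios were 0.38, 0.11 and 0.16 in cocaine IP libraries 1, 2 and 3, and those of all genes 0.03, 0.05 and 0.07. Slc25a5 had the highest mean ratio: it stood at 140, 75.2 and 83.6 CPM in cocaine IP against 43.5 CPM unbound, with log2 ratios of 1.61, 0.72 and 0.89. Slc25a29 was next, at 8.50, 4.41 and 4.58 CPM against 2.90 CPM, with ratios of 1.46, 0.52 and 0.59. Both were above the unbound library in every IP library. Slc25a34 had the lowest mean, at 0.388, 1.20 and 1.64 CPM against 1.86 CPM, and Slc25a36, a pyrimidine nucleotide carrier, the next, at 4.90, 7.85 and 6.78 CPM against 11.3 CPM. Their ratios were -2.17, -0.68 and -0.22, and -1.27, -0.60 and -0.79. In all, 16 of the 38 members were above the unbound library in each of the 3 IP libraries and 7 below in each, beside 4300 above and 3477 below of 13527 genes. The neuronal aspartate/glutamate and glutamate carriers Slc25a12 and Slc25a22 were among the 16, at ratios of 0.72, 0.41 and 0.64 and of 0.86, 0.62 and 0.78. So were their relatives Slc25a18, known from astrocytes, at 0.27, 0.26 and 0.46, and the low Slc25a13, at 0.405, 1.02 and 0.91.

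Over the saline input, the ratios of saline IP libraries 2 and 3 lay near 0. Their medians were -0.03 and -0.06, with 0 members at 2-fold, while saline IP library 1 had a median of 0.06 with 5 members at 2-fold. All genes had medians of 0.06, -0.01 and 0.01 in libraries 1, 2 and 3, with 1891, 97 and 154 of 13478 genes at 2-fold. Slc25a17 had the highest mean ratio, at 57.1, 32.8 and 29.1 CPM in saline IP against 26.9 CPM in input, followed by Slc25a3 at 470.5, 272 and 281 CPM against 261 CPM. Slc25a18 had the lowest, at 4.28, 10.8 and 10.1 CPM against 13.7 CPM, followed by Slc25a34 at 0.756, 1.33 and 0.712 CPM against 1.34 CPM. The log2 ratios in libraries 1, 2 and 3 were 1.08, 0.30 and 0.10 for Slc25a17, 0.85, 0.08 and 0.09 for Slc25a3, -1.67, -0.33 and -0.44 for Slc25a18 and -0.79, 0.00 and -0.88 for Slc25a34. Beside these, the 10 layer 5 markers had median log2 ratios to input of 1.02, 0.02 and 0.35 in the same libraries, and the 9 astrocyte markers -1.25, -0.08 and -0.19. The 7 endothelial and mural markers tested had medians of 1.005, 0.54 and 0.325, so ratios above 0 were not particular to layer 5 markers.

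**Figure D5:**
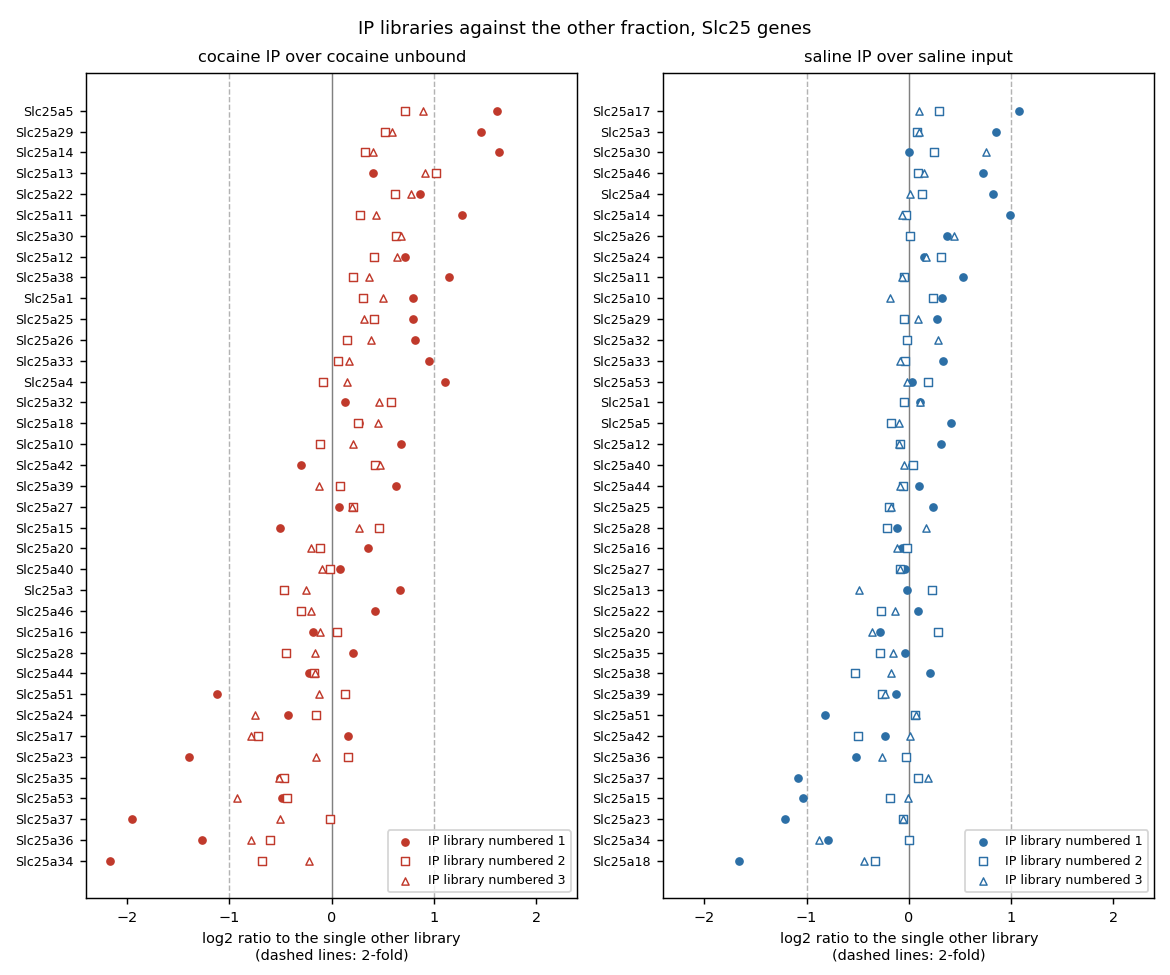
log2 ratio of each IP library to the single unbound library of the cocaine group (left) or the single input library of the saline group (right) for the members tested, 1 of them not plotted, ordered by mean ratio. The filled circles of library 1 spread from -2.17 to 1.63 over unbound and from -1.67 to 1.08 over input, while no open marker of libraries 2 and 3 over input reaches the dashed 2-fold lines.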

How the data were processed

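The authors deposited raw counts of reads for each gene symbol in 1 table a library. The submitters' processing notes name STAR 2.0.0e, HTSeq and the build mm10; the sources used here give neither the annotation nor the strand setting. Each table holds 32537 entries, of which 6 name no gene and were left out of all sizes and fits. Genes held 44.9% to 52.5% of entries, reads mapped to several places 28.3% to 47.0%, and gene counts per library 20926712 to 53862653. Counting error is small at this depth except for members of a few counts, and counts without molecular identifiers include PCR copies.

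The 9 IP libraries were fitted in edgeR 4.0.16 (R 4.3.3) with TMM scaling, the filterByExpr filter and a robust quasi-likelihood test, with Benjamini-Hochberg adjustment over the 16417 genes kept and a threshold of 0.05, as 3 group means for treatment and with treatment as a term for replicate number. The SE is the absolute log2 change over the square root of F. Fits were also run on simulated counts with known changes. The simulated treatment data held no difference by replicate number, so they cannot show what the treatment fit would find here. Fraction ratios used TMM over the 4 libraries concerned and a prior count of 2. CPM were TMM-scaled over all 11 libraries. Lengths and positions are from GENCODE M21 (GRCm38), which matched all 47 members. Same-numbered IP libraries deviated together from their group means (correlations of 0.376 to 0.794 over genes, all over 0.1), which meets the rule for pairing used here. Numbers 2 and 3 of different treatments also correlated, at 0.370 to 0.621, so the check sets number 1 apart and does not separate number 2 from number 3. The fit with the number as a block is given under the alternatives. DESeq2 was another alternative.

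The members and gene lists were chosen with earlier results of these data known. Values in every library are given for the 8 most abundant members, related pairs, the 3 lowest p in each treatment contrast, the 6 largest called rises and falls by number, and the highest and lowest 2 mean ratios of each fraction comparison. For other lists the 3 largest called changes may be named. One member is counted in all totals and is not reported here by name or in the figures.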

Additional observations from a re-analysis of the deposited data

Results flagged for a closer look

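One interaction term, chosen after the data were seen, passed the threshold for a member, with 1 number 1 library in each arm. The log2 change of Slc25a38 in number 1 over numbers 2 and 3 was 1.21 larger in cocaine than in yoked libraries (edgeR interaction, adjusted p = 0.0377), with a change of 0.87 in cocaine, -0.34 in yoked and 0.54 in saline. It was 1 of 42 members, where the same term called 523 of 16417 genes (3.19%), so the call does not set the family apart, and it has no replicate check within number 1. The cocaine over saline difference in the same change was 0.33 (adjusted p = 0.624).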

How the results depend on the processing

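The alternatives were DESeq2, RLE or upper-quartile scaling, no expression filter, counts without the ribosomal precursor Rn45s, a length correction, each library left out in turn, all number 1 libraries left out and a replicate block. No count of called members changed by over 1.5 times in 122 recalculations. Only number 1 over numbers 2 and 3 started above 0 members, and the counts of all other comparisons stayed at 0, where this rule says little. Number 1 over numbers 2 and 3 gave 17 (length trend removed) to 24 members (no expression filter), and 18 to 21 with 1 library left out, when 13 of the 22 members kept the call in all 9 runs. Slc25a29 kept it in 3 runs, Slc25a10, Slc25a22 and Slc25a39 in 4, Slc25a34 in 5, Slc25a12 in 7, and Slc25a18, Slc25a25 and Slc25a36 in 8. With the length trend removed, Slc25a39 reversed to -0.025 (adjusted p = 0.862); the cause was not tested. Treatment contrasts stayed at 0 members under each alternative, the replicate block included, where 5, 1 and 9 of 42 members, beside 2023, 493 and 3006 of 16417 genes, had an unadjusted p under 0.05 for cocaine over saline, yoked over saline and cocaine over yoked. The block changed no call. The cocaine over saline median of the members, 0.11, was 0.05 with the length trend removed, and between 0.036 (without cocaine library 1) and 0.156 (without saline library 1) with 1 library left out; the yoked over saline median, 0.03, lay between -0.063 (without saline library 2) and 0.042 (without saline library 1). The cocaine over yoked median of the members, 0.14, was -0.02 with the length trend removed and between -0.002 (without cocaine library 1) and 0.204 (without yoked library 1) with 1 library left out. Both fraction comparisons stayed at 0 members under each alternative. Of the values recomputed for named members, 549 counted as the same, 42 fell short of the threshold and 1 reversed. For tests, the same means an unchanged direction and side of the threshold. For fraction ratios, which have no threshold, it means a mean that moved by no more than the SD over the IP libraries. Depth limits the 5 members that missed the filter, with 0 to 29 counts a library.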
